A study of Homo sapiens with 7 samples.

Results

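Broad peaks were selected on their width alone, as called peaks of 600 bp or more on chromosomes 1 to 22 and X in the 6 peak lists of a PPARα chromatin immunoprecipitation and sequencing (ChIP-seq) study of HepG2 cells, a human liver cancer line. They numbered 5407 of 152915 peaks, and the other 147508 peaks of the same lists are called narrower here. Width chose the members, so their counts, widths and shares are descriptions, and tests were made only on where the summits lay and on whether other lists had a peak there. All cells were transfected with a PPARα expression vector and were given 10 µM of the PPARα agonist WY14643 for 2 h, starting 48 h after transfection in cells that got it alone. The PPARα+ERα group also received estrogen receptor alpha and 45 min of its agonist PPT at 10 nM beforehand. The PPARα+ERβ group received estrogen receptor beta and 45 min of its agonist DPN at 10 nM, and the PPARα group received no estrogen receptor or estrogen receptor agonist. The same PPARα antibody was used for all 6 libraries, 2 per group, and the library without antibody was not analysed here. The receptors came from plasmids, on top of what the line makes itself, and nothing in the labels says that the 2 libraries of a group came from separate cultures. The titles give both libraries of a group one S number of their own, so group and S number cannot be told apart.

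PPARα is a fatty-acid-sensing nuclear receptor that pairs with RXR and binds a direct repeat of the AGGTCA core, and in liver it drives genes of fatty acid breakdown. Estrogen receptors bind as pairs to an inverted repeat of the same core. A peak caller joins bases covered by more fragments than the local background predicts, so a peak is at least about 1 fragment long and becomes wide where fragments spread over more bases. Wide stretches of signal at gene starts are known for marks of active chromatin, while a single receptor site normally gives a narrow peak.

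Before the results, a feature of the peak edges has to be given, because it bears on every width and every overlap. Of broad peaks that overlapped a peak of the other library of their group, 62.1% to 68.1% shared at least 1 edge with it to the exact base, and 12.8% to 21.04% shared both edges. Among narrower peaks 77.0% to 89.1% shared an edge, and 2.26% to 3.07% shared both. Between the PPARα+ERβ and PPARα lists the broad peaks shared 1 edge in 57.7% to 70.1% of overlaps and both edges in 12.5% to 19.8%, close to the values within a group. Between the PPARα+ERα and PPARα lists they shared 1 edge in 22.6% to 38.7% and both edges in none, over only 21 to 70 overlapping broad peaks a pair. Narrower peaks of these lists shared 1 edge in 52.0% to 62.3% and both edges in 0.146% to 1.16%. Within groups, 80 broad regions of PPARα+ERα, 81 of PPARα+ERβ and 104 of PPARα had the same first and last base in 2 libraries. The source of the shared edges was not tested.

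Sequence was read in the promoters that peaks covered. RefSeq promoters (GRCh38.p14, 250 bases before to 50 bases after a gene start) were counted as covered when a peak took in at least 150 of their 300 bases. A broad peak of any list covered 24 of 34961 promoters, at 19 separate places, and narrower peaks alone covered 245. A run of 10 or more A or 10 or more T was found in 12 of the 24 promoters under a broad peak (50.0%, Wilson 95% interval 31.4% to 68.6%), in 70 of the 245 under narrower peaks (28.6%, 23.3% to 34.5%) and in 1032 of all 34961 promoters (2.95%, 2.78% to 3.13%). The following 6 promoters were covered by a broad peak in both libraries of a group and were chosen after their values were seen. They are printed on the gene's strand, and capitals mark runs of 10 or more A or T and the AGGTCA core, written TGACCT in reverse complement. The gene CACNB4 (chr2:151972003-151972302, minus strand) encodes a calcium channel subunit, LOC102724048 (chr3:34554985-34555284, plus strand) is a long noncoding RNA, and CCT4 (chr2:61888622-61888921, minus strand) encodes a subunit of the cytosolic chaperonin. C6orf52 (chr6:10694748-10695047, minus strand) shares its start region with PAK1IP1, a ribosome biogenesis gene, WDR70 is at chr5:37379068-37379367 (plus strand), and DNASE2 (chr19:12881400-12881699, minus strand) encodes a lysosomal nuclease.
CACNB4: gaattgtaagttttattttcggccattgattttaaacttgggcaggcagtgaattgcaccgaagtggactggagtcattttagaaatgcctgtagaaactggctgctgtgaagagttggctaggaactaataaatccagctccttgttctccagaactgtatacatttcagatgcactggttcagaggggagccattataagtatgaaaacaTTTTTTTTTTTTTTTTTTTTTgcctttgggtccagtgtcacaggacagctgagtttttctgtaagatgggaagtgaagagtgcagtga
LOC102724048: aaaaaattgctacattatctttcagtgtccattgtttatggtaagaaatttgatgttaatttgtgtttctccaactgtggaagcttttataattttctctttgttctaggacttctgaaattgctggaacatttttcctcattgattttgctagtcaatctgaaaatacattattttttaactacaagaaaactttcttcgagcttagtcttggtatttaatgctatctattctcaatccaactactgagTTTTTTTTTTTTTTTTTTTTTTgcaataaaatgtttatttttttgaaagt
CCT4: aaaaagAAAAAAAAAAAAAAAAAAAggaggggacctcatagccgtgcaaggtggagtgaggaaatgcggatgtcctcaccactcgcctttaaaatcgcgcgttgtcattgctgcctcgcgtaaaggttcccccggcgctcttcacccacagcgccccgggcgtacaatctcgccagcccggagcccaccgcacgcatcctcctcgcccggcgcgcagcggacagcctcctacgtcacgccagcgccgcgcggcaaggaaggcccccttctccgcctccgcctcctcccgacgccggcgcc
C6orf52: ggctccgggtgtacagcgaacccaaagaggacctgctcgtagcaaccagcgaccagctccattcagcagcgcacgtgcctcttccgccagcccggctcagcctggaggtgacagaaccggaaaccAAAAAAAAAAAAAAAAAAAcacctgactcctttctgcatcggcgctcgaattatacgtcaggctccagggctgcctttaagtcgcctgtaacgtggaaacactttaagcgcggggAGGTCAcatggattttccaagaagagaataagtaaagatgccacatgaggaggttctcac
WDR70: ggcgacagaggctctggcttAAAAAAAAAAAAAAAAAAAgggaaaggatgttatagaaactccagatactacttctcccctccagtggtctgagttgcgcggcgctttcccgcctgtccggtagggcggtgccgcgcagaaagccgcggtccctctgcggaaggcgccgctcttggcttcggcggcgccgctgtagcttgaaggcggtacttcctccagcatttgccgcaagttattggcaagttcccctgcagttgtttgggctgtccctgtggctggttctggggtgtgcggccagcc
DNASE2: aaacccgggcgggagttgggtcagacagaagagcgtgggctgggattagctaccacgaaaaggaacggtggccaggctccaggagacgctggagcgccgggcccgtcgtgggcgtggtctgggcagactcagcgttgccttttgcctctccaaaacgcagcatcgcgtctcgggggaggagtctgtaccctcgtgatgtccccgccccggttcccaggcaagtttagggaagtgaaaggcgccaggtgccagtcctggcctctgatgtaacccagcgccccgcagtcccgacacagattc

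Where a printed promoter held a run, it sat at an edge or summit to within a few bases. At CACNB4 a broad peak of 629 and 628 bp in the PPARα+ERα libraries began inside a run of 21 bases, which is A on the plus strand. At LOC102724048 the PPARα+ERα peaks, 731 and 756 bp wide, ended inside a run of 22 T. At C6orf52 all 4 libraries with an estrogen receptor had a peak of exactly 658 bp that ended inside a run of 19 T on the plus strand. At CCT4 the run of 19 bases lay in the middle, 0 to 7 bases from the summit, of peaks 649 and 650 bp wide in PPARα+ERα and 732 and 698 bp wide in PPARα+ERβ. At WDR70 a run of 19 A lay 2 or 3 bases from the summit of peaks of 738 and 741 bp in PPARα+ERβ and 731 and 764 bp in PPARα. DNASE2, with 631 and 652 bp in PPARα and 648 bp in PPARα+ERβ library 2, held no such run, and neither did the promoter of TAF5, a subunit of the general transcription factor TFIID, with 660 and 661 bp in PPARα+ERβ and 663 bp in PPARα library 2.

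Over all promoter windows the same placement held for narrower peaks. Of the 12 promoters under a broad peak that held a run, 10 had it within 10 bases of an edge or summit. Overlapping promoters can share a run, and these 10 promoters held 8 separate runs: 1 run of A at a left edge, 3 runs of T at a right edge and 4 runs at a summit. Of the 70 under narrower peaks, 67 had it so placed, and they held 66 separate runs, with 34 runs of A at a left edge, 30 runs of T at a right edge and 2 runs at a summit. Among these no run of A lay at a right edge and no run of T at a left edge, with letters read on the plus strand. Within 40 bases of distinct left edges that fell in promoters, a run of A was found at 2 of 12 edges of broad peaks and 39 of 232 edges of narrower peaks (16.8%), and a run of T at none. The 9 right edges of broad peaks had a run of T in 3 cases and a run of A in none, and the 230 right edges of narrower peaks had a run of T in 44 (19.1%) and a run of A in none. A stretch of 81 bases placed at every promoter position held a run of A in 0.387% and a run of T in 0.402%. No genome sequence outside promoters was used, so how far this holds for other broad peaks was not tested, and the part of such runs in peak width was not tested.

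The AGGTCA core was present on either strand in 5 of the 24 promoters under a broad peak (20.8%), in 30 of the 245 under narrower peaks (12.2%) and in 13.8% of all promoters. Of these 5, 3 were overlapping windows of C6orf52 and PAK1IP1 and held the same core, so this core was counted 3 times. Its direct repeat spaced by 1 base and its inverted repeat spaced by 3 bases, both searched on either strand and each counting as a core as well, were found in none of the 24 promoters, and in 8 and 1 of all promoters. The median G+C content was 52.3% under broad peaks, 52.0% under narrower peaks and 58.7% over all promoters. These are matches of letters in a short window and describe neither sites nor their use.

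The share of broad peaks was higher in both PPARα+ERα libraries than in the other 4. Broad peaks made up 1030 of 24505 peaks (4.20%, Wilson 95% interval 3.96% to 4.46%) in PPARα+ERα library 1 and 1285 of 27544 (4.67%, 4.42% to 4.92%) in library 2. In PPARα+ERβ they were 533 of 17457 (3.05%, 2.81% to 3.32%) and 860 of 23302 (3.69%, 3.46% to 3.94%). In PPARα they were 668 of 23805 (2.81%, 2.60% to 3.02%) and 1031 of 36302 (2.84%, 2.67% to 3.02%). The group means were 4.43% ± 0.327 for PPARα+ERα, 3.37% ± 0.451 for PPARα+ERβ and 2.82% ± 0.0240 for PPARα (SD, n = 2 each), and no group overlapped another at this cutoff. With a cutoff of 800 bp the groups were not apart. There 254 of 24505 peaks of PPARα+ERα library 1 and 377 of 36302 peaks of PPARα library 2 counted, which are nearly equal shares. Broad peaks held 8.42% and 9.29% of all peak bases in PPARα+ERα, 6.01% and 7.14% in PPARα+ERβ and 5.53% and 5.52% in PPARα.

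**Figure D1:**
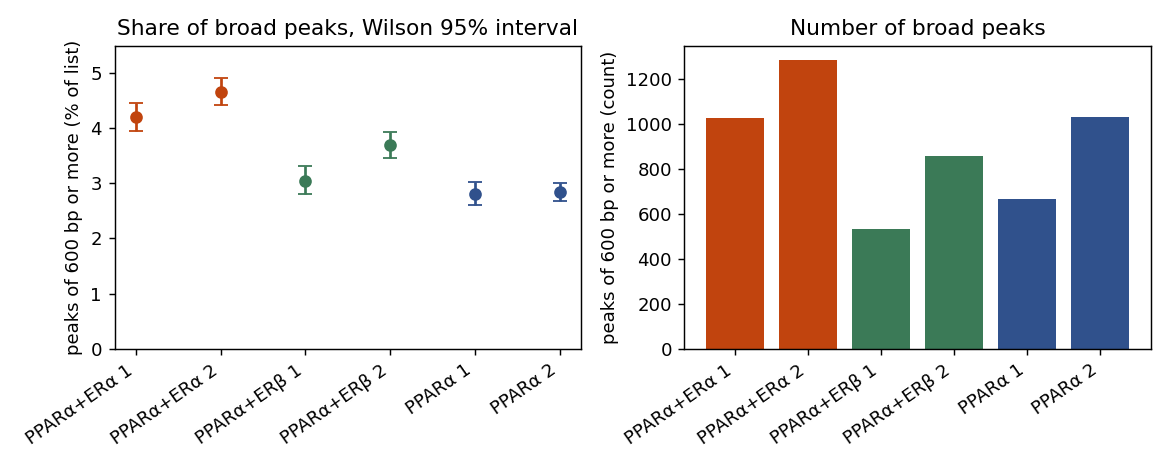
Share of peaks that were 600 bp wide or more, in percent of each list with Wilson 95% intervals (left), and their number (right), for 2 libraries per group. The PPARα+ERα points lie at 4.20% and 4.67%, above all others, while the counts of PPARα+ERα library 1 and PPARα library 2 are nearly equal at 1030 and 1031.

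Depth and local background also differed between PPARα+ERα and the other groups. The genome-wide fragment spacing, estimated from the background that the peak caller used, was 780 and 725 bp per fragment in PPARα+ERα, 537 and 450 bp in PPARα+ERβ and 537 and 471 bp in PPARα. Closer spacing means a deeper library. The deeper library of the pair had the higher share of broad peaks in PPARα+ERα and PPARα+ERβ and a nearly equal one in PPARα, while across groups PPARα+ERα had the widest spacing and the highest share. The median number of fragments at the summit of a broad peak was 10 and 11 in PPARα+ERα, 32 and 35 in PPARα+ERβ, and 38.5 and 51 in PPARα, against 9 and 10, 27 and 29, and 35 and 50 in the narrower peaks of those groups in the same order. The summit's local background, in multiples of the genome-wide level, was 2.57 and 2.57 for broad peaks of PPARα+ERα against 1.57 and 1.57 for narrower ones. It was 14.8 and 13.6 against 8.66 and 8.52 in PPARα+ERβ, and 16.5 and 15.7 against 13.5 and 15.7 in PPARα. Among peaks whose local background did not exceed 3 genome-wide levels, the mean shares of broad peaks were 3.27% in PPARα+ERα, 1.39% in PPARα+ERβ and 1.54% in PPARα. The PPARα+ERα share thus stayed the highest, and the part of depth in it was not tested.

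Broad peaks were alike in width in all lists. Their median width was 722.5 and 721 bp in PPARα+ERα, 720 and 731 bp in PPARα+ERβ, and 731 and 743 bp in PPARα, while the shortest peak of a list measured 304 to 319 bp. The cutoff of 600 bp therefore stood just under 2 shortest peaks. The widest peaks measured 1437 and 1416 bp in PPARα+ERα, 1311 and 1428 bp in PPARα+ERβ, and 1228 and 1520 bp in PPARα. In that order of lists, 50, 55, 31, 40, 41 and 70 peaks lay within 10 bp above the cutoff and 60, 74, 31, 51, 45 and 76 within 10 bp below it. The summit lay in the first or last 25% of the peak in 44.5% to 61.7% of broad peaks against 14.8% to 22.5% of narrower peaks.

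Broad summits lay nearer to genes than narrower ones in every library. Genes here are the protein-coding and lncRNA genes of the RefSeq table, and near means that a gene end lay no more than 3 kb from the summit base. In PPARα+ERα 16.6% and 15.3% of broad summits were near a gene end against 13.6% and 13.7% of narrower summits. PPARα+ERβ had 17.1% and 19.1% of broad summits there against 13.9% and 14.1% of narrower ones. For PPARα the shares were 14.8% and 15.6% of broad summits against 12.4% and 13.1% of narrower summits. The mean difference of 2.95 ± 1.12 percentage points (SD, n = 6) was positive in 6 of 6 libraries (exact two-sided sign-flip permutation test, p = 0.03125, adjusted p = 0.03125, the smallest that 6 libraries can give). The adjustment is Benjamini-Hochberg over the 6 location and sharing measures. The libraries are not fully independent, since they share edges as given above and call many of the same regions. Of PPARα library 1 broad summits, 80.8% lay in a peak of PPARα library 2 and 71.1% in one of PPARα+ERβ library 2. The test counts the libraries as independent, so its p for each location measure can be smaller than this design warrants.

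Desert positions, over 100 kb from any gene, were rarer among broad summits, at 3.40% on average against 6.09% of narrower summits. The difference was −2.69 ± 0.341 percentage points (SD, n = 6), negative in 6 of 6 libraries, with the same p. Broad summits fell in deserts in 3.40% and 3.81% of cases in PPARα+ERα, 2.81% and 2.91% in PPARα+ERβ, and 3.89% and 3.59% in PPARα. Narrower summits did so in 6.30% and 6.33%, 5.70% and 5.32%, and 7.04% and 5.85% of cases in those groups, so the 2 classes did not overlap.

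Gene starts and gene bodies differed by less. Chromosome 8 was not analysed here for gene starts. Of broad summits elsewhere, 8.06% lay within 3 kb of a gene start against 6.54% of narrower summits, a difference of 1.52 ± 0.804 points, higher in 6 of 6 libraries but by only 0.107 points in PPARα library 1. Inside a gene lay 62.7% of broad summits and 61.4% of narrower summits, a difference of 1.34 ± 1.03 points (SD, n = 6), also higher in 6 of 6 libraries. The exact test gave the same adjusted p of 0.03125 for each. Both calls were lost when the narrower peaks were weighted to the chromosomes of the broad ones, with adjusted p of 0.075 for starts and 0.0938 for gene bodies, and the calls for gene ends and deserts held.

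**Figure D2:**
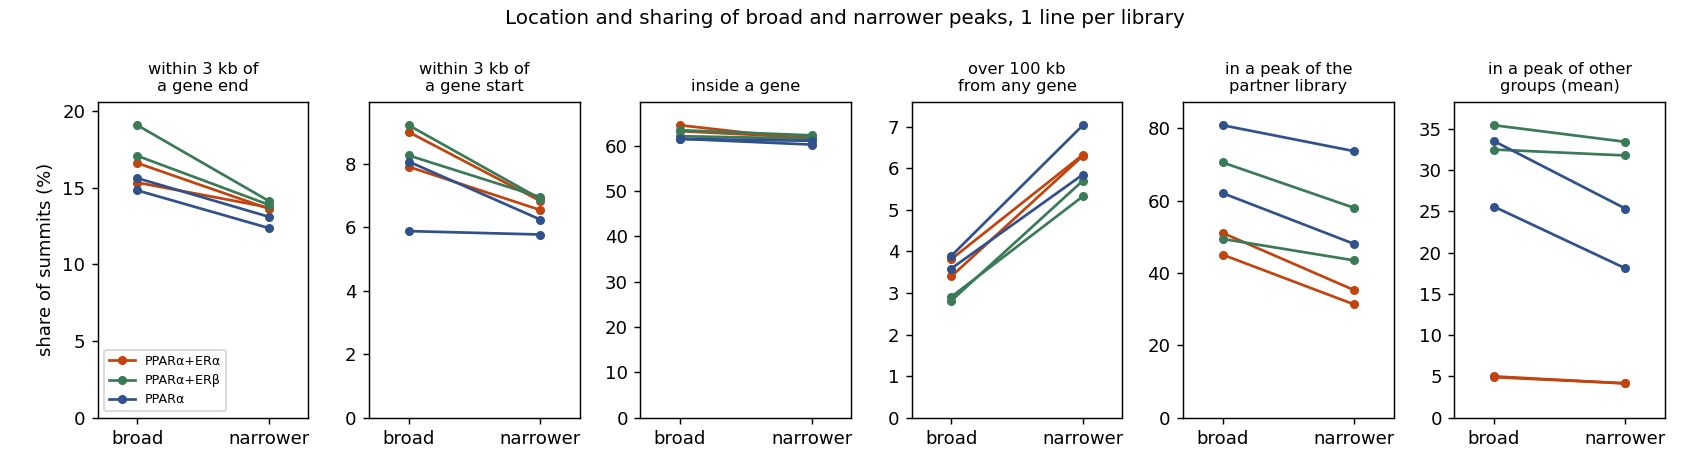
Share of summits, in percent, with each location or sharing property for broad peaks (left point) and narrower peaks (right point), 1 line per library and 1 colour per group. In the panel for positions over 100 kb from any gene all 6 broad points lie between 2.81% and 3.89%, below all narrower points.

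On average the excess near genes was larger from 1 to 10 kb than within 1 kb of an end. Within 1 kb of an end lay 5.31% of broad summits and 4.80% of narrower ones, with 4 of 6 libraries higher and an adjusted p of 0.219 by the exact sign-flip test, which does not show that the shares were alike. In PPARα+ERβ library 1 the band within 1 kb held 7.13% of broad and 5.11% of narrower summits. From 1 to 3 kb the shares were 11.1% of broad and 8.66% of narrower summits, and from 3 to 10 kb they were 25.3% and 20.5%, higher for broad in 6 of 6 libraries each. From 10 to 30 kb they were 28.8% and 27.5%, with 5 of 6 libraries higher. From 30 to 100 kb they turned, with 20.98% of broad and 26.4% of narrower summits, and beyond 100 kb of a gene end, summits inside long genes included, with 8.52% and 12.1%; no library was higher in either band. The median distance to a gene end was 11742 to 15423 bp for broad summits and 17690.5 to 21174 bp for narrower summits.

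Location did not change evenly along the range of width. The mean near-end share was 13.5% for peaks under 350 bp, 13.5% from 350 bp, 13.3% from 450 bp, 17.0% from 600 bp and 15.0% from 800 bp. The mean desert share was 5.94%, 6.20%, 6.27%, 2.89% and 4.60% in the same classes. In 50 bp steps over the 6 lists pooled, the desert share was 7.40% from 500 bp (interval 6.70% to 8.18%), 4.99% from 550 bp (4.10% to 6.06%) and 2.39% from 600 bp (1.66% to 3.43%). It was higher again among wider peaks, at 3.83% from 750 bp, 4.51% from 800 bp and 6.17% from 900 bp (4.14% to 9.08%), where the near-end share was 13.7%. A region called in several lists counts once per list here, so these pooled intervals are too narrow. With a cutoff of 800 bp the mean near-end difference was 1.40 points and the desert difference −1.40 points, with adjusted p of 0.0625 and 0.0938, so neither call held there.

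**Figure D3:**
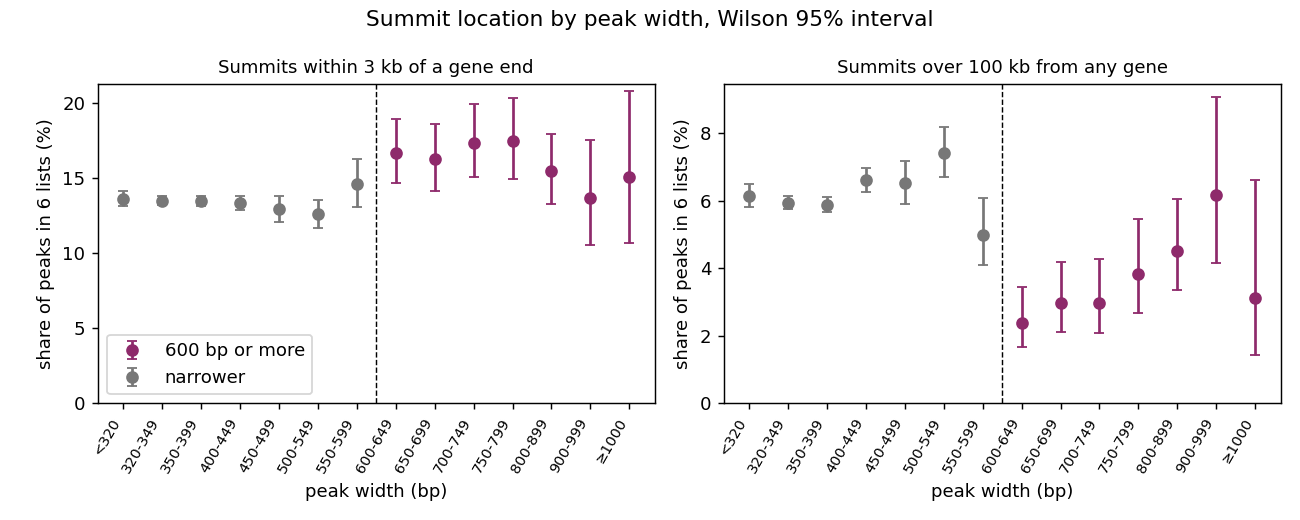
Share of summits within 3 kb of a gene end (left) and over 100 kb from any gene (right), in percent of the peaks of all 6 lists pooled, by peak width in bp, with Wilson 95% intervals; the dashed line marks 600 bp. The desert share is 7.40% in the class from 500 bp and 2.39% in the class from 600 bp, and the near-end share is nearly level below the line. A region called in several lists counts once per list, so the intervals are too narrow.

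No test of the location differences between groups passed the threshold. The near-end difference averaged 2.30 ± 0.960 points in PPARα+ERα, 4.07 ± 1.24 in PPARα+ERβ and 2.49 ± 0.0411 in PPARα (SD, n = 2 each), with p = 0.2 in the one-sided exact permutation test over 15 pairings of the libraries, whose smallest p is 0.0667. The desert difference was −2.71, −2.65 and −2.70 points in those groups, with an exact p of 0.933. Among peaks whose local background did not exceed 3 genome-wide levels, a setting added after the data were seen, the SD of the group means of the near-end difference was 2.45 points against 0.972 points over all peaks (exact p = 0.267). There the near-end share was 13.6% of broad and 13.2% of narrower summits in PPARα+ERα library 2, and 22.5% of 89 broad and 13.3% of narrower summits in PPARα+ERβ library 2. This design cannot reach 0.05, so these p-values do not show that the groups were alike.

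Broad peaks were more frequent on several gene-rich chromosomes, with exceptions. The mean share of broad peaks was 6.70% on chromosome 19, 6.02% on chromosome 22, 5.22% on chromosome 16 and 4.99% on chromosome 17, against 1.85% on chromosome 21, 2.56% on chromosome 13 and 2.59% on chromosome 4. Chromosome 11 had more protein-coding genes per Mb than chromosome 16, at 9.63 against 9.47, yet a mean share of 3.14%. Across 23 chromosomes the share followed the number of protein-coding genes per Mb with a Spearman rho of 0.476 to 0.750 and a Pearson r of 0.649 to 0.765 in single libraries, a description of chromosomes that share one library's depth and base composition.

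Broad summits were found again in the partner library more often than narrower ones. In PPARα+ERα 51.1% and 45.1% of broad summits lay inside a peak of the other library against 35.3% and 31.3% of narrower summits. The shares were 70.5% and 49.4% of broad summits against 58.0% and 43.5% of narrower summits in PPARα+ERβ, and 80.8% and 62.1% against 73.7% and 48.0% in PPARα. The mean difference was 11.5 ± 4.02 points, higher in 6 of 6 libraries (SD, n = 6; exact sign-flip test, adjusted p = 0.03125). This measure reads the same 2 lists in both directions within each of the 3 groups, so its 6 values are not independent. The test counts them as independent, so its p is smaller than this design warrants. Sharing with the other groups, as the mean over 4 libraries, was 22.8% of broad and 19.5% of narrower summits, a difference of 3.33 ± 3.52 points, higher in 6 of 6 libraries with the same p. It too reads pairs of lists in both directions, so the same limit holds. Neither result is one of the broad class as such: against peaks of 400 bp up to the cutoff the differences were −1.44 and −2.09 points, in favour of the narrower class, with adjusted p of 0.406 and 0.075. The partner's peaks at broad regions were themselves wider, with a median of 655 to 729 bp against 347 to 392 bp at narrower regions, and the part of that width in the sharing was not tested. By width class the partner share was 40.5% under 350 bp, 54.1% from 350 bp, 64.01% from 450 bp, 58.6% from 600 bp and 63.3% from 800 bp.

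Sharing of broad summits between groups ran almost wholly between PPARα+ERβ and PPARα. Of PPARα+ERβ broad summits, 56.0% to 63.98% lay in a peak of a PPARα library, against 53.0% to 62.0% of narrower ones. Of PPARα broad summits, 41.5% to 71.1% lay in a peak of a PPARα+ERβ library, against 29.5% to 51.4% of narrower ones. Of PPARα+ERα broad summits, 3.35% to 4.37% lay in a PPARα peak and 4.76% to 7.09% in a PPARα+ERβ peak, against 2.71% to 3.58% and 4.59% to 5.60% of narrower ones. In the reverse direction, PPARα+ERα peaks held 5.81% to 7.88% of PPARα+ERβ broad summits, against 5.97% to 7.37% of narrower ones. They held 1.65% to 4.04% of PPARα broad summits, against 1.83% to 4.21% of narrower ones. Broad summits were thus not shared more in every pair of lists. The difference between broad and narrower was 0.798 ± 0.0761 points in PPARα+ERα, 1.37 ± 0.913 in PPARα+ERβ and 7.83 ± 0.498 in PPARα (SD, n = 2 each; exact permutation test over 15 pairings, p = 0.2).

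**Figure D4:**
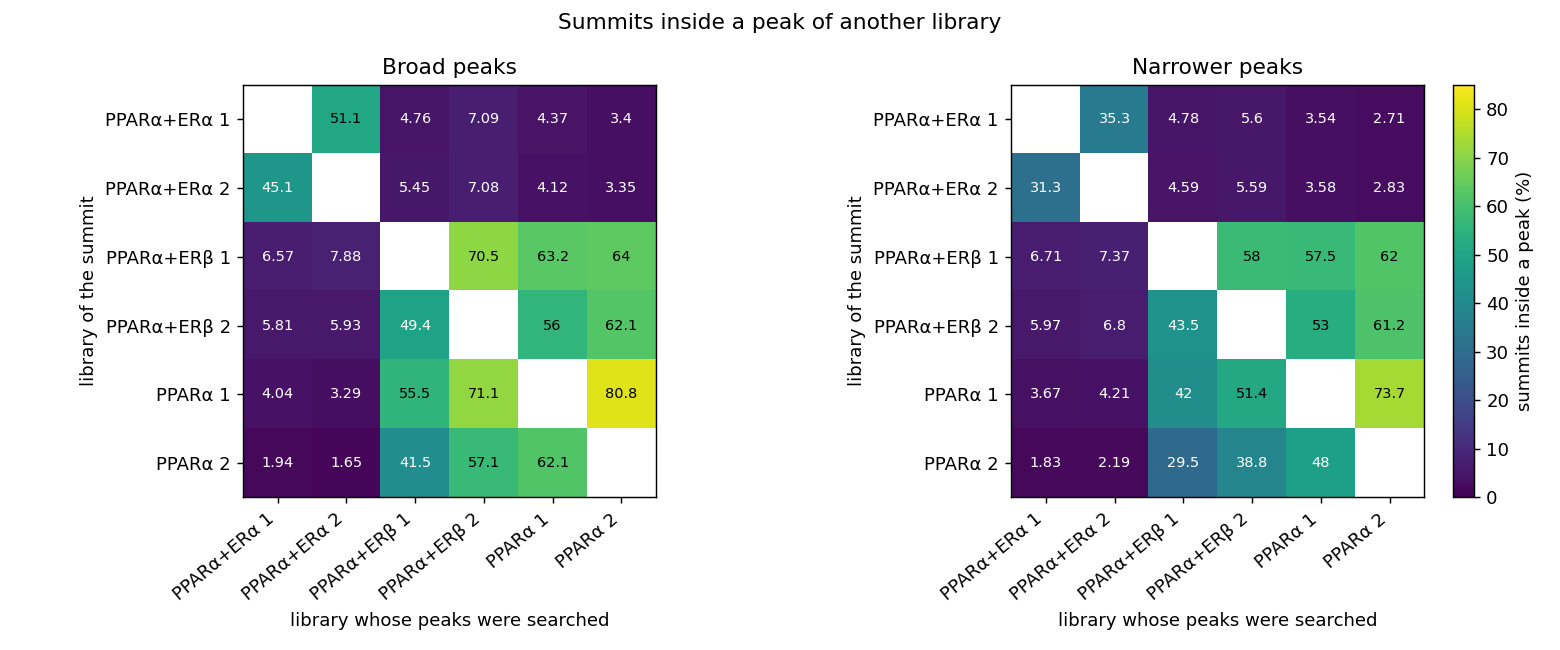
Percent of summits of the library in a row that lie inside a peak of any width of the library in a column, for broad peaks (left) and narrower peaks (right). The 2 PPARα+ERα libraries share 51.1% and 45.1% of broad summits with each other and at most 7.88% in any cell that pairs them with another group.

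Width itself was a property that returned in the partner library. Of regions broad in one library and called in the other library of the group, 69.4% and 63.9% were broad there as well in PPARα+ERα, 81.3% and 71.8% in PPARα+ERβ, and 78.8% and 66.6% in PPARα. Regions that were narrower in the first library were broad in the second in 2.73% and 2.14%, 1.25% and 0.737%, and 1.28% and 0.690% of cases in those groups. Fewer than 1 in 100 broad regions were split into several peaks there. For regions broad in both libraries the widths differed by a median of 10.5 bp in PPARα+ERα, 2 bp in PPARα+ERβ and 9.5 bp in PPARα. Between PPARα+ERβ and PPARα the width also returned, with 56.2% to 77.4% of called regions broad in the other group's library. Between PPARα+ERα and the other groups it did so in 7.46% to 51.0%, over 21 to 118 called regions a pair.

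**Figure D5:**
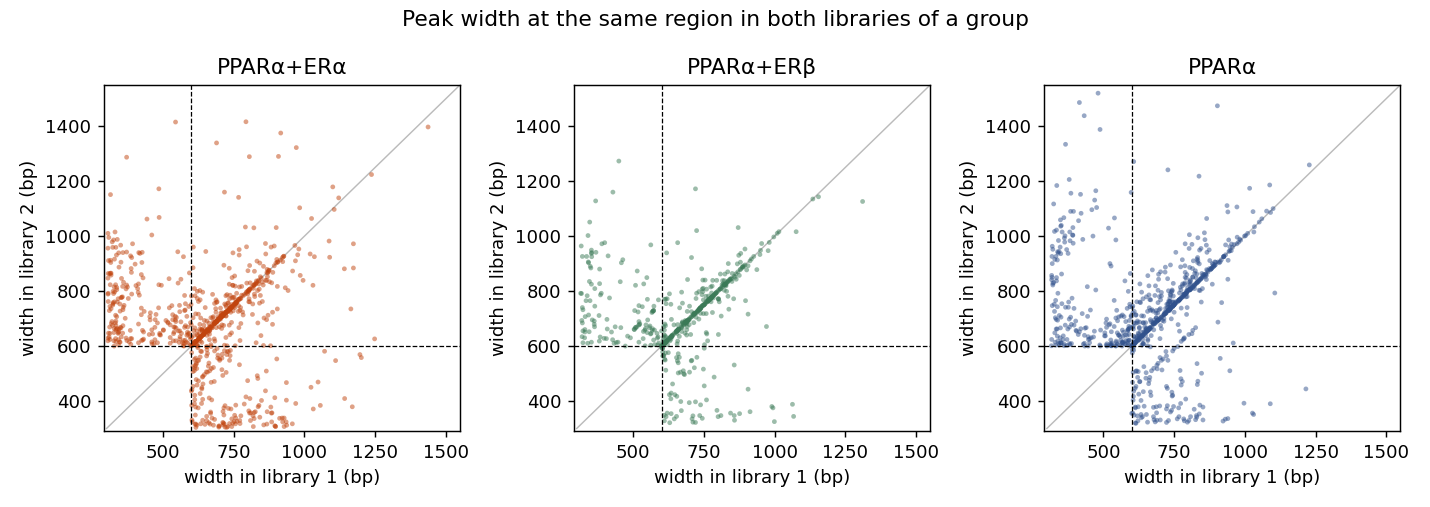
Peak width in bp in library 2 against library 1 for each region called in both libraries of a group and broad in at least 1 of them (802, 508 and 769 regions in PPARα+ERα, PPARα+ERβ and PPARα); dashed lines mark 600 bp and the grey line equal widths. Many points lie on the line of equal widths, and the median gap of regions broad in both libraries is 10.5, 2 and 9.5 bp.

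Merging peaks that overlapped by at least 1 bp gave 92292 regions, of which 3638 held a broad peak. In 2464 of them the peak was broad in only 1 library, in 764 in 2 libraries, in 233 in 3, in 171 in 4, in 4 in 5 and in 2 in all 6. Both libraries of PPARα+ERα were broad at 400 regions, of PPARα+ERβ at 313 and of PPARα at 434, which is 20.9%, 29.0% and 34.3% of the regions broad in either library. Among peaks of any width, 20.5%, 33.4% and 41.4% of regions called in either library were called in both. Broad regions of PPARα+ERβ and PPARα had 170 in common, 54.3% of the first list and 39.2% of the second, whereas PPARα+ERα had 4 in common with PPARα+ERβ and 2 with PPARα.

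Most broad regions of PPARα+ERα had no peak in the other lists, as did most of its regions of any width. Of its 400 regions, 377 (94.25%) had no peak of any width in either PPARα library, against 95.1% of the PPARα+ERα regions of any width called in both libraries. For PPARα+ERβ peaks these shares were 88.5% and 90.9%. A peak in both PPARα+ERα libraries and neither PPARα library was found at 10.1% of 83631 regions of any width and at 23.7% of the 3160 regions with a broad peak in any of these 4 lists. In the other direction 408 of the 434 PPARα regions had no peak in PPARα+ERα. A peak of any width in both PPARα libraries and neither PPARα+ERα library was found at 20% of all regions. It was found at 22.8% of regions with a broad peak, which is near the background. The 377 and 408 regions themselves are 11.9% and 12.9% of the 3160. Of the 313 PPARα+ERβ regions 43 had no peak in PPARα, and of the PPARα regions 71 had none in PPARα+ERβ. These are 2.40% and 3.97% of 1789 regions with a broad peak. Peaks of any width were so placed at 2.75% and 10.2% of 52850 regions, and at 4.08% and 7.49% of the 1789. Between the estrogen receptors, 354 PPARα+ERα regions had no PPARα+ERβ peak, and 278 PPARα+ERβ regions had no PPARα+ERα peak. They make up 12.1% and 9.48% of 2933 regions with a broad peak. Peaks of any width were so placed at 11.4% and 12.7% of 70487 regions, and at 24.0% and 15.0% of the 2933. Width and presence were read from the same lists, so these shares are descriptions. A region entered these counts through a broad peak in one of the lists compared. At least 1 library was broad at 1915 regions in PPARα+ERα, 1080 in PPARα+ERβ and 1265 in PPARα. Shares above those of all regions, such as 23.7% against 10.1%, therefore depend on which list supplied the regions and are not results about broad peaks.

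Regions of any width called in both libraries give the measure for these counts. No peak in the other 4 libraries was found for 350 of its 400 broad regions (87.5%) and for 89.8% of its regions of any width. The shares were 12.1% (38 regions) and 11.1% for PPARα+ERβ, and 16.1% (70 regions) and 30.4% for PPARα.

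The broad region with the highest shared width lay inside SPRED2, an inhibitor of Ras-MAPK signalling, at chr2:65362087-65363529, and was seen in PPARα+ERα alone. Its peaks were 1437 and 1397 bp wide, with the authors' fold of 16.5 and 16.9 over local background and 22 and 23 fragments at the summit. At chr7:66113734-66114970, 137 bp from an end of CRCP, a component of RNA polymerase III, the PPARα+ERα peaks were 1237 and 1224 bp wide. The other 4 lists again had none there. PPP2R1A, the scaffold subunit of protein phosphatase 2A, had PPARα+ERα peaks of 983 and 1103 bp with a summit 562 bp before its start (chr19:52188566-52189668). Further regions of this group lay inside RNF130, a ubiquitin ligase gene (1105 and 1097 bp), inside LGSN, a lens protein gene (1025 and 1064 bp), and at chr10:13411326-13412504 without a protein-coding gene (1100 and 1179 bp). SPRED2 and RNF130 had a local background of 1.00 and 1.28 times the genome-wide level in both libraries, CRCP one of 6.42, and PPP2R1A one of 19.3.

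The leading regions of PPARα+ERβ alone were narrower and often identical in both libraries. They were 863 and 863 bp wide at chr2:183055254-183056116, 838 and 838 bp at chr20:18584787-18585624, 794 and 794 bp in the lncRNA gene ACTR3-AS1 on chromosome 2, and 782 and 782 bp at chrX:136292446-136293227. NAA25, a subunit of an N-terminal acetyltransferase, had peaks of 826 and 824 bp on 13 fragments each. Their summits lay 778 bp from an end of the gene (chr12:112109518-112110343). FHIT, a diadenosine triphosphate hydrolase gene at a fragile site, held peaks of 835 and 781 bp. The local background was 63.1 and 59.7 times the genome-wide level at the chr20 region, where the fold was 1.61 and 1.96. It was 20.7 to 28.4 at chr2:183055254-183056116, ACTR3-AS1 and FHIT, 6.18 and 3.89 at the chrX region, and 1.00 in both libraries at NAA25.

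PPARα alone had 978 and 978 bp in the lncRNA gene LINC01098 (chr4:177911372-177912349), 947 and 947 bp at chr3:155812013-155812960 and 952 and 947 bp at chr7:120079976-120080927. BAG4, a co-chaperone gene, held 932 and 932 bp, LRP1B, a gene of the LDL receptor family, 906 and 906 bp, and STMND1 897 and 905 bp. Except for LINC01098, at 13.5 and 13.3, all of these PPARα regions had a local background above 20 times the genome-wide level.

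Regions that were broad in all 6 libraries numbered 2. Inside KIAA1217 (chr10:24489241-24490213) the peaks were 806 and 893 bp wide in PPARα+ERα, 954 and 973 bp in PPARα+ERβ, and 815 and 882 bp in PPARα. At chr17:47113537-47115010, with no protein-coding gene within 3 kb, they were 751 and 778 bp, 948 and 933 bp, and 903 and 1474 bp wide in those groups. At KIAA1217 both PPARα+ERβ widths exceeded those of the other groups, which overlapped, and at chr17 both PPARα+ERα widths lay below the other 4.

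Some of the widest peaks were far less wide in other libraries. The widest of all, 1520 bp in PPARα library 2 at chr4:43784841-43786363, faced 481 bp in PPARα library 1 and 447 and 478 bp in PPARα+ERβ. Inside ESRRG, which encodes an orphan nuclear receptor related to estrogen receptors, PPARα library 1 had 1216 bp and library 2 had 444 bp, and PPARα+ERβ had 367 and 1128 bp. TCAIM, a mitochondrial protein gene, held 793 and 1416 bp in PPARα+ERα, and SKAP1, a T cell adaptor gene, 1248 and 626 bp. MRTFA, a coactivator of serum response factor, was wide in both groups that had it, with 1311 and 1126 bp in PPARα+ERβ and 728 and 1241 bp in PPARα.

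Few regions were broad in both libraries of one group and called but narrower in both of another. They numbered 8 for PPARα+ERα against PPARα and 3 in the other direction, 11 and 17 for PPARα+ERβ against PPARα, and 16 and 3 for PPARα+ERα against PPARα+ERβ. PPARα+ERα, PPARα+ERβ and PPARα had 400, 313 and 434 regions broad in both libraries. Regions without any peak in the other group could not count. These were 94.25% and 94.0% in the first comparison, 13.7% and 16.4% in the second, and 88.5% and 88.8% in the third. The counts thus cannot be compared between comparisons. MAPKAP1, a subunit of mTOR complex 2, held 884 and 830 bp in PPARα+ERα against 368 and 354 bp in PPARα. SNAI3, a Snail family repressor gene, ran the other way, with 391 and 354 bp in PPARα+ERα against 859 and 987 bp in PPARα. At GGT7, 544 bp from its far end (chr20:34843358-34844545), the PPARα+ERβ peaks were 385 and 383 bp wide and the PPARα peaks 1017 and 1174 bp. SLC19A3, a thiamine transporter gene, held 775 and 775 bp in PPARα+ERβ against 573 and 332 bp in PPARα, and PECAM1, an endothelial adhesion gene, 365 and 379 bp against 943 and 986 bp. SEC23A, a coat protein of vesicles leaving the endoplasmic reticulum, had a region 2881 bp before its start of 872 and 870 bp in PPARα+ERα against 350 and 348 bp in PPARα+ERβ.

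No gene of the 2 lipid metabolism lists had a broad peak near an end. None of 34 fatty acid oxidation genes had one in any library. Peaks of any width in both libraries stood near 5 (14.7%), 3 (8.82%) and 3 (8.82%) of them in PPARα+ERα, PPARα+ERβ and PPARα. Of all 19974 protein-coding genes, 5.27%, 5.18% and 7.07% had such a peak of any width. The differences from these shares rest on few genes and were not tested. None of 30 lipid handling targets of PPARα had a broad peak, and none had a peak of any width in both libraries of a group. Over all 19974 protein-coding genes a broad peak near an end in both libraries was found at 55 (0.275%) in PPARα+ERα, 50 (0.250%) in PPARα+ERβ and 51 (0.255%) in PPARα. At that rate a list of this size would hold less than 1 such gene, so a count of 0 is not a result about the lists. Broad peaks in both libraries were likewise at 0 of 30 estrogen response genes, 36 plasma protein genes, 48 nuclear receptors, 77 cytosolic ribosomal proteins, 54 histone genes, 35 spliceosomal RNA genes and 16 markers each of neurons, muscle and blood. In 1 library they stood near KCNK6 of the estrogen response list and NR1D1 of the nuclear receptors in PPARα+ERα, RPS15A in PPARα+ERβ, and RNU4-1 and RNU4-2 in PPARα.

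The coactivator list held the exceptions, with 1 of 26 genes in each group. NCOA6, which encodes a coactivator of nuclear receptors, had a broad region of 755 and 818 bp in PPARα+ERα alone, on 20 and 19 fragments. It lay 1547 bp from an end of NCOA6 and 2885 bp from an end of its neighbour TP53INP2 (chr20:34716222-34717039). NCOA4, a ferritin receptor in autophagy first described as a coactivator, had one 1996 bp after its start (chr10:46028540-46029322). Its width was 783 and 775 bp in PPARα+ERβ and 737 and 746 bp in PPARα, at a local background near 65 times the genome-wide level.

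Of the genes of the 3 transfected receptors, PPARA held a broad peak in PPARα+ERα library 2 alone, 701 bp wide and on 7 fragments, at chr22:46229108-46229808. Its widest peak in the other 5 libraries was 320 to 579 bp. ESR1 held none, with widest peaks of 434 to 530 bp, and ESR2 had a single peak of 305 bp in PPARα+ERα library 1.

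A broad summit within 3 kb of a protein-coding gene start in both libraries was found for 40 genes in PPARα+ERα, 26 in PPARα+ERβ and 25 in PPARα, and in at least 1 library for 135, 79 and 81. Near either gene end, a broad peak in both libraries stood at 0.275%, 0.250% and 0.255% of all 19974 protein-coding genes in those groups. A peak of any width did so at 5.27%, 5.18% and 7.07%. The lists also differed in their number of broad peaks, and the counts were not tested between groups. The following genes were chosen after the lists were seen. A gene given for 1 group may still have a peak in the others. PPARα+ERα had the replication helicase gene MCM2, the DNA repair gene PARP2, the RNA polymerase III subunit gene POLR3K and the forkhead factor gene FOXP1. PPARα+ERβ had the histone methyltransferase gene KMT2A and the zinc finger repressor gene BCL11A, and PPARα had the growth factor gene GDF15 and the nucleotide exchange factor gene RCC1. PPARα+ERα had CCT4, COMMD1, C6orf52 and PAK1IP1 together with PPARα+ERβ, and PPARα+ERβ had WDR70, DIP2B, TRAF4, ZGPAT, MRPS27, PTCD2, C1orf159 and NCOA4 together with PPARα.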

How the data were processed

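The authors deposited 1 narrowPeak list per library, made per the submitters' processing notes with MACS2 2.2.7.1, Bowtie 1.0.1 and Trim Galore 0.6.4 among the tools named, on hg38 (GRCh38.p13); roles and the control used are not given in the sources used here. The deposited fold is a ratio of summit over local background. The deposited −log10 p and −log10 q belong to the summit, and the authors' score is 10 times −log10 q as a whole number for at least 99.97% of the peaks of a list. Fragments and background at each summit were recovered from fold and −log10 p, taken as a Poisson tail, and returned the deposited value within 0.001 for 100% of peaks. Spacing, an estimate of depth, is the shortest peak width over the genome-wide background, and peaks built on few fragments have less certain edges.

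Scripts ran under SciPy 1.17.1, NumPy 2.4.6 and pandas 2.3.3 in Python 3.11.15, with figures from Matplotlib 3.10.9. Genes came from RefSeq GRCh38.p14, whose primary chromosomes have the coordinates of the deposited build; promoters of chromosome 8 were not analysed here. Library numbers follow the order of deposit. A summit base, not an interval, was used for location and sharing, so that the peak's own width did not count; the width of the peaks it was set against did. Differences within libraries were tested by an exact sign-flip permutation test over 6 libraries, two-sided, at an adjusted p of 0.05. Wilson intervals cover counting error only, and those over pooled lists count a region once for each list that called it. Runs of A or T were examined after the sequences were seen. The 418 entries of 12 gene lists matched the table, and members, lists and tests were chosen with earlier results of these data known. Regions were named by width and by sharing between libraries under a written rule: the 3 widest peaks of a library, regions broad in all 6, up to 6 per group with no other peak, up to 4 per direction narrower elsewhere, and up to 3 genes per list. Not every named region is reported. The steps were checked on simulated data.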

Additional observations from a re-analysis of the deposited data

How the results depend on the processing

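No paired analysis was possible because the labels number no replicates. Of 59 recomputed tested differences, 41 kept direction and call, 16 kept direction only and 2 reversed. Adjusted p-values here are from the exact sign-flip permutation test. The reversals were those against peaks of 400 bp up to the cutoff, with −1.44 points for sharing with the partner (adjusted p 0.406) and −2.09 for other groups (0.075). With a cutoff of 800 bp no call was left: 1.40 points for gene ends (0.0625), 0.501 for starts (0.225), 1.54 inside genes (0.281), −1.40 for deserts (0.0938), 14.8 for partner sharing (0.0625) and 4.52 for other groups (0.0625). At a low local background (at most 3 genome-wide levels), gene bodies (1.00, 0.219) and other groups (2.70, 0.15) were lost; with the widest 5% of each list, gene bodies (0.829, 0.313); within 1 kb, ends (0.510, 0.219) and starts (0.142, 0.219); with a reciprocal overlap of 50%, other groups (1.56, 0.344). Settings chosen after seeing the data lost starts (1.498, 0.0625) and gene bodies (1.46, 0.0625) at a width of 2 shortest peaks, and starts (1.15, 0.075) and gene bodies (0.836, 0.0938) when weighted by chromosome. Why calls were lost was not tested, except that 5 libraries cannot give a p under 0.0625. For partner sharing, leaving out a library also removed the value of its partner, so the whole group dropped out and adjusted p was 0.125. All 36 differences that left out a library thus missed the threshold, and they kept their sign.

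Leaving out a library gave 2.55 to 3.22 points for ends, 1.36 to 1.80 for starts, 0.957 to 1.53 inside genes, −2.77 to −2.60 for deserts and 1.98 to 5.17 for other groups. For partner sharing, where the whole group dropped out, it gave 9.93 to 12.7. With 1 library a group the broad share was 4.20% to 4.67% in PPARα+ERα, 3.05% to 3.69% in PPARα+ERβ and 2.81% to 2.84% in PPARα, and broad regions numbered 1030 to 1285, 533 to 860 and 668 to 1031. Regions that differ then numbered 382 to 1189 for PPARα+ERα without PPARα, 415 to 987 for PPARα without PPARα+ERα, 68 to 229 for PPARα+ERβ without PPARα, 100 to 344 for PPARα without PPARα+ERβ, 362 to 1127 for PPARα+ERα without PPARα+ERβ and 288 to 759 for PPARα+ERβ without PPARα+ERα.

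In PPARα+ERα, PPARα+ERβ and PPARα, the broad share was 1.09%, 0.861% and 0.923% at 800 bp, with 88, 71 and 137 regions broad in both libraries. Regions that differ then numbered 81 for PPARα+ERα without PPARα, 125 for PPARα without PPARα+ERα, 5 for PPARα+ERβ without PPARα, 21 for PPARα without PPARα+ERβ, 74 for PPARα+ERα without PPARα+ERβ and 60 for PPARα+ERβ without PPARα+ERα. At low background it was 3.27%, 1.39% and 1.54%, with 200, 14 and 19 regions, and 191 for PPARα+ERα without PPARα, 13 for PPARα without PPARα+ERα, 3 for PPARα+ERβ without PPARα, 2 for PPARα without PPARα+ERβ, 180 for PPARα+ERα without PPARα+ERβ and 11 for PPARα+ERβ without PPARα+ERα. At −log10 q of 3 or more it was 4.09% in PPARα+ERα and 2.76% in PPARα, and at 2 shortest peaks 2.83% in PPARα+ERβ and 2.35% in PPARα. The mean share of called partner regions that were broad was 61.8% at 800 bp and 52.2% at low background. Of the listed genes with a broad peak in both libraries, 0 were left at 800 bp or low background, and 1 at −log10 q of 3. With a median of 10 and 11 fragments at broad summits of PPARα+ERα, widths there rest on few fragments.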
